A study of Mus musculus with 16 samples.

Results

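This account covers 9 genes that mark red blood cells and their RNA in the developing face: the embryonic globins Hbb-y, Hbb-bh1 and Hba-x, the adult globins Hba-a1, Hba-a2, Hbb-bs and Hbb-bt, and the erythroid genes Alas2 and Gata1. The 9 were chosen by name, and all 9 were present among the 30286 distinct gene symbols of the deposited table. The RNA came from facial prominences (the buds from which the face grows) of C57BL/6 mice at embryonic day 12. The 4 groups were mesenchyme of Esrp1 knockout (KO, Esrp1-/-) embryos, mesenchyme of wild-type (WT) embryos, surface ectoderm of KO embryos and surface ectoderm of WT embryos. The knockout embryos are labelled as homozygous, and the extent of the deletion is not given in the sources used here. Esrp1 regulates splicing in epithelia, and the study's title concerns cleft lip and palate in mice that lack it. Each group had 4 libraries, each from a pool of 6 to 7 embryos whose layers had been separated surgically; whether a pool gave both layers is not given in the sources used here. The table holds 1 TPM value (a share of all transcripts, corrected for depth and transcript length) per gene and group. No value below therefore has an error, no comparison has a replicate check, and the depth behind the values is unknown.

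Red blood cells are made elsewhere in the embryo and reach the face through its vessels. In the mouse the earliest are primitive cells from the yolk sac, which make the embryonic globins Hbb-y and Hbb-bh1 (beta type) and Hba-x (alpha type), along with adult alpha globin. Definitive cells, later made in the fetal liver, use mainly adult globins. Within primitive cells Hbb-bh1 is known as the earlier beta-type gene and Hbb-y as the later one. In blood-containing tissue these genes report on how much blood RNA a dissected piece holds and, in part, on the kind of red cell it came from. In bulk tissue, fewer red cells and less RNA per red cell cannot be told apart.

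The beta-type genes lie on the minus strand of chromosome 7 and the alpha-type genes on the plus strand of chromosome 11 (GENCODE M21 coordinates; assembly GRCm38, equal to mm10). From its upstream end the chromosome 7 cluster runs from Hbb-y (103851749 to 103853216) through Hbb-bh1 (103841637 to 103843164) and Hbb-bs (103826534 to 103828096) to Hbb-bt (103812524 to 103813996). The chromosome 11 cluster runs from Hba-x (32276400 to 32278116) through Hba-a1 (32283511 to 32284465) to Hba-a2 (32296489 to 32297298). Alas2 (150547375 to 150570638, plus strand) and Gata1 (7959260 to 7978071, minus strand) are on the X chromosome. All 9 are annotated as protein-coding.

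How far the globins can be told apart by sequence decides which values stand alone, so the first 60 coding bases of each, all in exon 1, are shown from the GENCODE M21 transcripts. Capitals mark bases that differ from the adult copy of the same type, Hbb-bs or Hba-a1.
Hbb-y (chr7:103853093-103853152, minus strand): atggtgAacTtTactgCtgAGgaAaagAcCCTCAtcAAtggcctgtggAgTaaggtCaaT
Hbb-bh1 (chr7:103843051-103843110, minus strand): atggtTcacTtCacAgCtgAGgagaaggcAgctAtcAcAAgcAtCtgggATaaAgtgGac
Hbb-bs (chr7:103827816-103827875, minus strand): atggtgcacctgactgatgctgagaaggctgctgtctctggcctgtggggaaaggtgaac
Hba-x (chr11:32276664-32276723, plus strand): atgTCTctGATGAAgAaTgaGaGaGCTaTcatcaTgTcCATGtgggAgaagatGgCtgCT
Hba-a1 (chr11:32283707-32283766, plus strand): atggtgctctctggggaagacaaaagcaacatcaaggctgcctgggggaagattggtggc
Hbb-bt has the same 60 bases as Hbb-bs, and Hba-a2 the same as Hba-a1.

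Over the full coding sequence Hbb-bs and Hbb-bt differed at 1 of 441 bases, and 93.6% of the 50-base stretches of Hbb-bs also occurred in Hbb-bt. Hba-a1 and Hba-a2 differed at 1 of 426 bases and shared 87.8% of such stretches. The split of reads within each of these pairs is therefore uncertain, and their sums are given beside the single values. Hbb-y and Hbb-bh1 were 76.4% identical and shared no 50-base stretch. Hba-x was 61.7% identical to Hba-a1, also with no shared stretch. The embryonic globins thus stand apart from each other and from the adult copies in sequence.

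The promoters are shown as background on the genes, and a part of promoter sequence in the differences between groups was not tested. Given are the 130 bases before the start of an embryonic and an adult gene of each type, from RefSeq (GRCm38.p6). Capitals mark matches to CACCC, to the letters CCAAT and to the GATA motif, each sought on both strands, and matches to TATAA on the gene's own strand within 50 bases of the start. As GATA motif counted AGATAA and also AGATAG, with TGATAA and likewise TGATAG. The RefSeq starts used for these windows can differ from the GENCODE gene ends given above.
Hbb-y (chr7:103853208-103853337, minus strand): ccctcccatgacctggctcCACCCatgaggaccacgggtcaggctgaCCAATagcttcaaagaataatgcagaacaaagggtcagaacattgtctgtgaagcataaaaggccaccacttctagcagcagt
Hbb-bs (chr7:103827929-103828058, minus strand): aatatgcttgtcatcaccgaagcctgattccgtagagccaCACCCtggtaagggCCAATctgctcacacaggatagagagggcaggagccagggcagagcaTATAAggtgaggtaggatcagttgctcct
Hba-x (chr11:32276470-32276599, plus strand): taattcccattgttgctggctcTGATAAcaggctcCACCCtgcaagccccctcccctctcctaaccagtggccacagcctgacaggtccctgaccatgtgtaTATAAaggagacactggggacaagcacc
Hba-a1 (chr11:32283542-32283671, plus strand): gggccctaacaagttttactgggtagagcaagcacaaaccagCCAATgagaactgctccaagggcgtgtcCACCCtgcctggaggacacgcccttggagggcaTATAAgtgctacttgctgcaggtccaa

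Promoter entries were matched for 8 of the 9 genes, with Hbb-bh1 the exception. All 6 matched globins held CACCC in the 250 bases before the start, as did Alas2 and Gata1, against 52.0% of 32841 promoters in the table. CCAAT was found in 5 of the 6 globins (33.9% of all promoters) and TATAA also in 5 of the 6 (4.93% of all promoters). The CCAAT exception was Hba-x and the TATAA exception Hbb-y. The GATA motif was found in 5 of the 6 globins and in Alas2, against 26.5% of all promoters. These matches describe letters in a window and not bound sites.

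The targeted gene and the layer markers were examined first. Esrp1 was at 1.0 TPM in KO mesenchyme, 1.01 in WT mesenchyme, 62.9 in KO ectoderm and 170 in WT ectoderm. Krt5 and Krt14, keratins of basal epithelium, were at 2.32 and 2.0 TPM in KO mesenchyme and at 522 and 440 TPM in KO ectoderm. Prrx1, a factor of facial mesenchyme, was at 254 TPM in KO mesenchyme, 293 in WT mesenchyme, 40.4 in KO ectoderm and 9.22 in WT ectoderm. The column sums ran from 916266 to 975762 TPM. Libraries with 2 index barcodes in the labels, against 1 in the others, numbered 2 in KO mesenchyme, 0 in WT mesenchyme, 2 in KO ectoderm and 1 in WT ectoderm. The part of this difference in the results was not tested.

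Globin transcripts were among the most abundant of the mesenchyme and were close to 4 times as high there as in ectoderm, in both genotypes. Together the 9 genes made up 2.11% of the column sum in KO mesenchyme, 2.09% in WT mesenchyme, 0.524% in KO ectoderm and 0.517% in WT ectoderm. Genotype moved this share by a factor of 1.01 in either layer. The 7 globins gave almost all of it, at 2.10% in KO mesenchyme, 2.08% in WT mesenchyme, 0.523% in KO ectoderm and 0.516% in WT ectoderm.

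Hbb-y, the beta-type globin of maturing primitive red cells, was the highest of the 9 in every group. It stood at 9695 TPM in KO mesenchyme, 9188 in WT mesenchyme, 2294 in KO ectoderm and 2250 in WT ectoderm. By level it ranked 5 among all symbols in KO mesenchyme, 4 in WT mesenchyme, 48 in KO ectoderm and 46 in WT ectoderm. The mesenchyme values were far above the ectoderm values, and the genotypes lay close together in each layer, with log2 ratios of KO over WT (here and below of TPM + 1) of 0.08 in mesenchyme and 0.03 in ectoderm.

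Hbb-bh1, the beta-type globin of early primitive red cells, was at 1878 TPM in KO mesenchyme, 1118 in WT mesenchyme, 428 in KO ectoderm and 261 in WT ectoderm. Both KO values were above the WT value of their layer, by similar factors: 1.68-fold in mesenchyme (log2 ratio 0.75) and 1.64-fold in ectoderm (0.71). It was the single member past 1.5-fold between genotypes in either layer. Under quantile normalization it no longer passed in mesenchyme (0.58), and Hba-a2 did, as lower in KO (-0.59).

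The adult beta globins were the lowest of the globins. Hbb-bs was at 516 TPM in KO mesenchyme, 451 in WT mesenchyme, 118 in KO ectoderm and 105 in WT ectoderm. Hbb-bt was at 575 TPM in KO mesenchyme, 658 in WT mesenchyme, 152 in KO ectoderm and 160 in WT ectoderm. The copies leaned in opposite directions between genotypes, but their sum was nearly level: 1091 TPM in KO mesenchyme against 1109 in WT mesenchyme, and 270 TPM in KO ectoderm against 265 in WT ectoderm. The sum depends less than the single values on how reads were split. It is not free of the split, since TPM corrects for transcript length (628 bases for Hbb-bs and 703 for Hbb-bt in GENCODE M21).

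**Figure D1:**
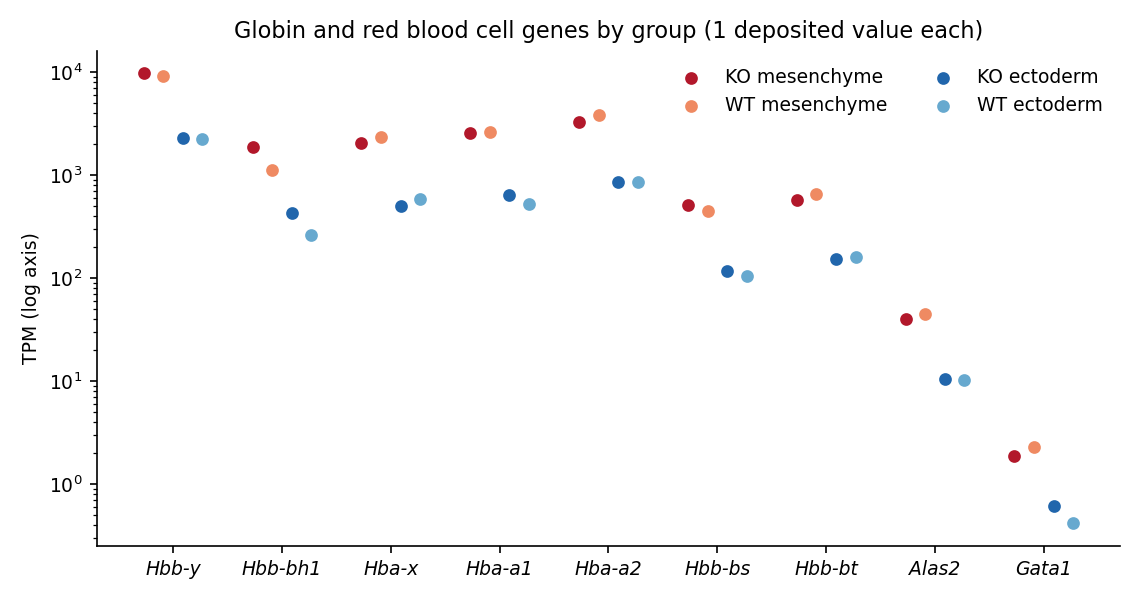
TPM (log axis) of each of the 9 genes in KO mesenchyme, WT mesenchyme, KO ectoderm and WT ectoderm, 1 deposited value per point. Both mesenchyme points lie above both ectoderm points for every gene, from Hbb-y (9695 TPM in KO mesenchyme) down to Gata1 (1.89 TPM in KO mesenchyme).

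Hba-x, the embryonic alpha-type globin, was at 2024 TPM in KO mesenchyme, 2325 in WT mesenchyme, 498 in KO ectoderm and 581 in WT ectoderm. It was slightly lower in KO in both layers, with log2 ratios of -0.20 in mesenchyme and -0.22 in ectoderm, both within 1.5-fold. In mesenchyme this sign turned (0.25) when the trend of the log2 ratios with transcript GC content was subtracted.

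The adult alpha globins, which primitive cells also make, each exceeded Hba-x in every group except Hba-a1 in WT ectoderm. Hba-a1 was at 2535 TPM in KO mesenchyme, 2601 in WT mesenchyme, 641 in KO ectoderm and 523 in WT ectoderm. Hba-a2 was at 3294 TPM in KO mesenchyme, 3789 in WT mesenchyme, 855 in KO ectoderm and 849 in WT ectoderm. Their sum was 5829 TPM in KO mesenchyme against 6390 in WT mesenchyme, and 1497 TPM in KO ectoderm against 1372 in WT ectoderm, so the genotypes differed by less than 1.5-fold in both layers and in opposite directions.

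Alas2 encodes the erythroid form of the enzyme that starts heme synthesis. It was at 40.3 TPM in KO mesenchyme, 45.1 in WT mesenchyme, 10.5 in KO ectoderm and 10.2 in WT ectoderm. Gata1, a transcription factor of red cell and megakaryocyte precursors, was near the limit of the table at 1.89 TPM in KO mesenchyme, 2.28 in WT mesenchyme, 0.62 in KO ectoderm and 0.42 in WT ectoderm. Both followed the globins in being higher in mesenchyme. Gata1 did not reach a mean of 1 TPM in ectoderm and was not counted in the genotype comparison there.

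Between genotypes the 9 genes as a set stood near the other genes of the table, with Hbb-bh1 as the exception. In mesenchyme 1 of 9 was at least 1.5-fold higher in KO and 0 were lower, where 2.35% of 14233 genes were higher and 13.4% lower. The median log2 ratio was -0.16, against -0.12 for all genes. In ectoderm 1 of the 8 counted members was higher and 0 were lower, where 4.93% of 13935 genes were higher and 0.452% lower, and the median was 0.03, against 0.05 for all genes. The 2-fold mark was passed upward by no member in either layer, where 0.632% of genes passed it in mesenchyme and 1.61% in ectoderm. The signs of the small differences depended on scaling: with the GC trend subtracted, 6 of 9 members changed sign in mesenchyme, and with columns rescaled to an equal sum 3 of 8 changed sign in ectoderm. Hbb-bh1 was not among these. With the GC trend subtracted, the median of the members in mesenchyme was 0.25, against 0.04 for all genes.

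**Figure D2:**
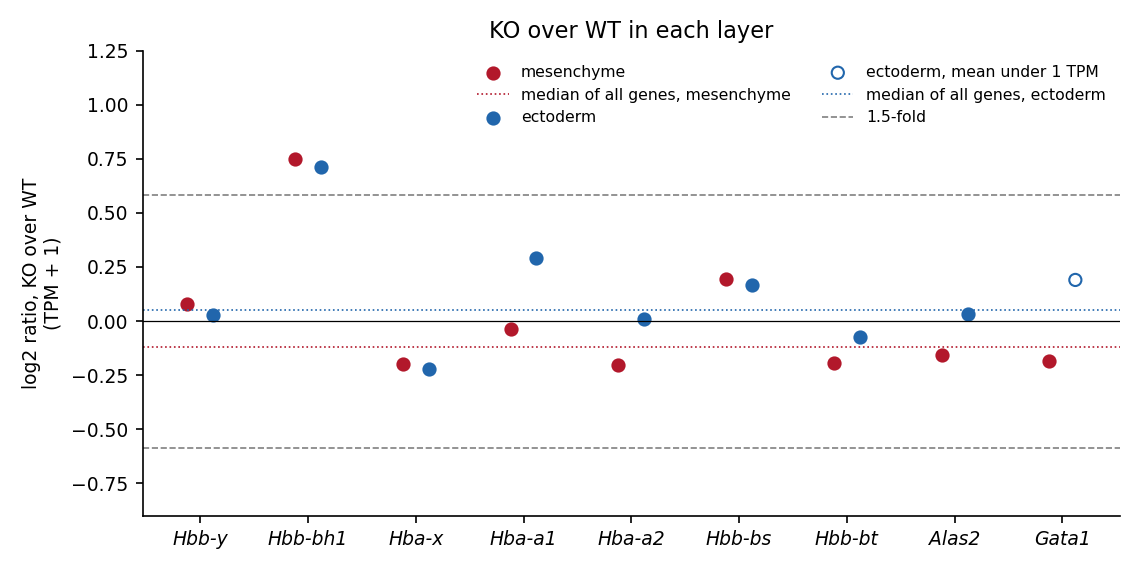
Log2 ratio of KO over WT (TPM + 1) for each gene in mesenchyme (red) and ectoderm (blue); dashed lines mark 1.5-fold, dotted lines the median of all genes and the open circle a gene under a mean of 1 TPM. Hbb-bh1 lies above the upper dashed line in both layers (0.75 and 0.71), and all other points lie between the dashed lines.

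The KO over WT ratios of the layers were within 0.05 of each other, on the log2 scale, for 4 of the 9 genes. The difference of the log2 ratios, ectoderm minus mesenchyme, was -0.05 for Hbb-y, -0.04 for Hbb-bh1, -0.02 for Hba-x and -0.03 for Hbb-bs. It was larger for the other 5, of which all but Hbb-bt had opposite signs in the layers: Hba-a1 (0.33), Gata1 (0.37), Hba-a2 (0.21), Alas2 (0.19) and Hbb-bt (0.12). None reached 2-fold, a size that 7.94% of 14328 genes reached in either direction. The Gata1 ratio in ectoderm rests on 0.62 and 0.42 TPM, below the level for counting. In ectoderm the log2 ratios of Hba-a2 and Alas2 were 0.01 and 0.03, and both changed sign with columns rescaled to an equal sum.

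Hbb-bh1 was one of 42 genes at least 1.5-fold higher in KO in both layers, or 0.316% of the 13283 genes measured in both. The layers have separate libraries but may come from the same embryos, so they may not be independent samples. By size Hbb-bh1 ranked 29 of these 42 in ectoderm and 31 in mesenchyme. Others of the 42, named after their values were seen, were the heat shock genes Hspa1a (log2 ratio 3.60 in mesenchyme and 1.49 in ectoderm) and Hspa1b (3.15 and 1.18). The Y-linked genes Ddx3y (1.31 in mesenchyme and 0.93 in ectoderm) and Uty (1.39 and 0.94) were also among them. So were genes of neurons, such as Elavl4 (0.89 and 0.75) and Stmn2 (0.77 and 0.68), and histone genes, such as Hist1h4m (1.18 and 0.85). The part of stress or of the sex make-up of the pools in the Hbb-bh1 value was not tested. The labels give the same age for all groups, and a finer stage of the pooled embryos is not given in the sources used here.

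The make-up of globin RNA, in which each share is taken within a column and so does not depend on its scale, differed in the same way. For every 100 TPM of Hbb-y there were 19.4 TPM of Hbb-bh1 in KO mesenchyme, 12.2 in WT mesenchyme, 18.6 in KO ectoderm and 11.6 in WT ectoderm. The ratio was 1.59 times as high in KO as in WT in mesenchyme and 1.61 times as high in ectoderm. With the GC trend subtracted, its log2 KO over WT was 0.59 in mesenchyme and 0.69 in ectoderm. Between layers of 1 genotype it differed by no more than 1.05-fold. The GC content of the transcripts of the pair was similar, at 46.8% for Hbb-bh1 and 48.8% for Hbb-y.

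Embryonic genes made up most of the beta-type RNA, and their joint share hardly differed between groups. It was 91.4% in KO mesenchyme, 90.3% in WT mesenchyme, 91.0% in KO ectoderm and 90.4% in WT ectoderm. Within it Hbb-bh1 took 14.8% of the beta-type RNA in KO mesenchyme, 9.79% in WT mesenchyme, 14.3% in KO ectoderm and 9.39% in WT ectoderm. Hbb-y took 76.6% in KO mesenchyme, 80.5% in WT mesenchyme, 76.7% in KO ectoderm and 81.1% in WT ectoderm. Hbb-bh1 was thus a larger part of the beta-type RNA in KO than in WT in both layers, and Hbb-y, the main part everywhere, a smaller one.

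The alpha-type RNA was mostly adult. Hba-x made up 25.8% of it in KO mesenchyme, 26.7% in WT mesenchyme, 25.0% in KO ectoderm and 29.7% in WT ectoderm. Hba-x was therefore a slightly smaller part in KO than in WT in both layers, opposite in direction to Hbb-bh1, although both are embryonic. Alpha-type over beta-type TPM was 0.620 in KO mesenchyme, 0.763 in WT mesenchyme, 0.667 in KO ectoderm and 0.704 in WT ectoderm. KO over WT, this ratio was 0.812 in mesenchyme and 0.948 in ectoderm. Alpha-type transcripts were richer in GC (55.7% to 57.2%) than beta-type ones (46.8% to 51.3%), and with the GC trend subtracted from each globin the direction in mesenchyme was lost (1.03), while ectoderm gave 0.885.

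**Figure D3:**
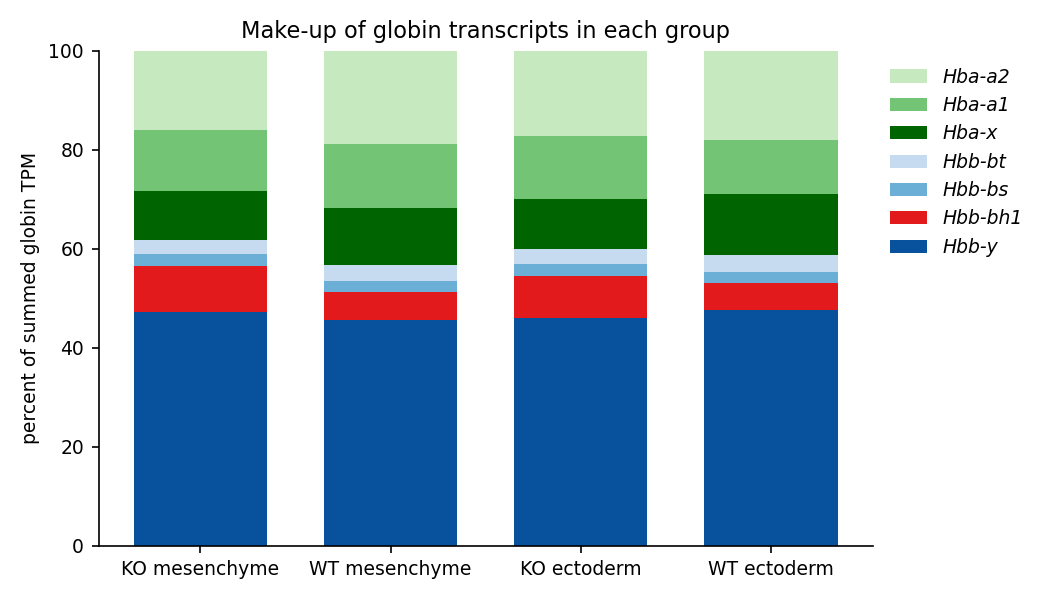
Share of each of the 7 globins in the summed globin TPM of each group, in percent. The Hbb-bh1 segment is 9.15% in KO mesenchyme, 5.55% in WT mesenchyme, 8.58% in KO ectoderm and 5.51% in WT ectoderm, while Hbb-y takes between 45.6% and 47.6% everywhere.

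The summed absolute difference between the 7 globin shares of a pair of groups, divided by 2, gives a distance of their make-up in percentage points. It was 1.98 between KO mesenchyme and KO ectoderm and 2.79 between WT mesenchyme and WT ectoderm, against 5.49 between KO and WT mesenchyme and 5.0 between KO and WT ectoderm. The layers of 1 genotype were therefore closer to each other in globin make-up than the genotypes of 1 layer, although their globin levels differed by about 4-fold. Between KO mesenchyme and WT ectoderm the distance was 5.22, and between WT mesenchyme and KO ectoderm 3.51. These distances include the uncertain splits within the adult pairs. They were not corrected for the GC trend, which removed the alpha to beta difference between the genotypes in mesenchyme.

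Divided by Alas2 within each column, most members kept nearly 1 ratio in all 4 groups. The highest ratio over the lowest was 1.03 for Hba-a2, 1.10 for Hbb-bt, 1.18 for Hbb-y, 1.20 for Hba-x, 1.23 for Hba-a1 and 1.28 for Hbb-bs. It was 1.44 for Gata1, whose values are low, and 1.88 for Hbb-bh1. Hbb-bh1 was at 46.6 times Alas2 in KO mesenchyme, 24.8 times in WT mesenchyme, 40.7 times in KO ectoderm and 25.5 times in WT ectoderm, so the KO groups stood together above the WT groups.

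All 9 genes were higher in mesenchyme than in ectoderm, in both genotypes. Between KO layers the ratio of TPM ran from 3.78 (Hbb-bt) to 4.39 (Hbb-bh1) for the 7 globins, and was 3.84 for Alas2 and 3.05 for Gata1. Between WT layers it ran from 4.0 (Hba-x) to 4.97 (Hba-a1) for the globins, and was 4.41 for Alas2 and 5.43 for Gata1. By 1.5-fold or more, 9 of 9 were higher in mesenchyme in each genotype and 0 lower. Gata1, below 1 TPM in both ectoderm groups, was counted only because of its mesenchyme values and could not come out lower. Among members with a mean of at least 5 TPM, 8 of 8 were higher in each genotype. Between KO layers 13.4% of 14411 genes were higher and 17.6% lower, and between WT layers 21.4% of 14242 were higher and 10.9% lower. All genes together had a median log2 ratio of 0.00 between KO layers and 0.15 between WT layers, against 1.98 (KO) and 2.04 (WT) for the members.

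In WT embryos, markers of vessels, facial mesenchyme and platelets had higher layer ratios of TPM than the 9 genes. The 15 endothelial markers had a median mesenchyme over ectoderm ratio of 4.57 in KO and 25.1 in WT, and the 15 markers of facial mesenchyme one of 4.57 in KO and 25.6 in WT. The globin and red cell genes, at medians of 3.95 in KO and 4.29 in WT, thus lay well below the vessel genes in WT and close to them in KO. Measured platelet genes had medians of 5.09 in KO and 13.2 in WT, macrophage genes of 2.14 in KO and 3.62 in WT, and granulocyte and mast cell genes of 2.72 in KO and 4.11 in WT. By this ratio the last of these lay near the 9 genes in WT. Several platelet genes were low in WT ectoderm, such as Gp9 at 0.31 TPM, which makes ratios of TPM large. By log2 ratio of TPM + 1 the platelet median was 1.31 in KO and 1.96 in WT. The members were above it, at 1.98 in KO and 2.04 in WT. On that scale granulocyte and mast cell genes had 1.14 in WT, endothelium 3.63 and facial mesenchyme 4.46. Pf4, a platelet chemokine, was at 34.7 TPM in KO mesenchyme, 35.1 in WT mesenchyme, 5.11 in KO ectoderm and 2.18 in WT ectoderm.

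**Figure D4:**
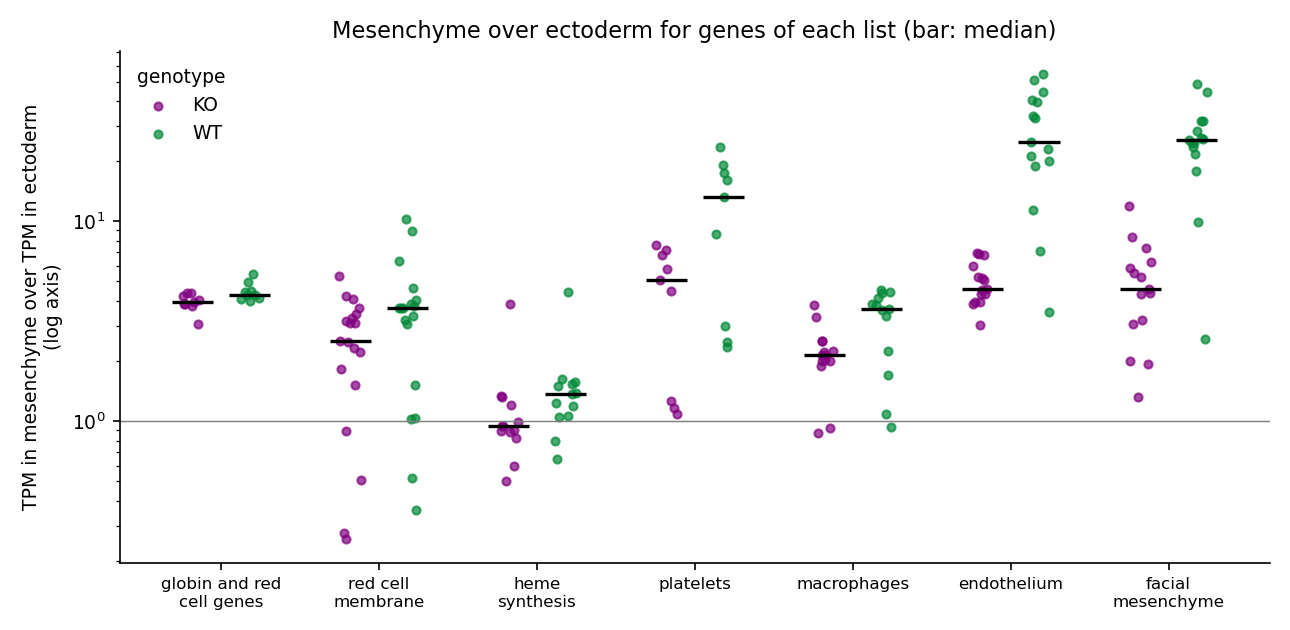
TPM in mesenchyme over TPM in ectoderm (log axis) for genes of 7 lists, KO left and WT right in each; points are genes whose mean reached 1 TPM and bars are medians. The globin and red cell genes sit near 4 in both genotypes, whereas the medians of endothelium and facial mesenchyme are 4.57 in KO and about 25 in WT.

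In ectoderm the same lists separated by genotype. Of the 12 measured endothelial genes 11 were at least 1.5-fold higher in KO ectoderm (median log2 ratio 1.15), and of 15 facial mesenchyme genes 14 (1.68), where 4.93% of all genes were higher. Kdr, Tek, Tie1, Emcn, Cldn5 and Eng were below 1 TPM in WT ectoderm and were counted only because of their KO value. These endothelial genes could therefore not come out lower. The facial mesenchyme genes were above 1 TPM in WT ectoderm, the lowest being Frzb at 1.64 TPM. In mesenchyme the lists leaned the other way: 8 of 15 facial mesenchyme genes were lower in KO and 0 higher (median -0.59), 5 of 15 endothelial genes were lower and 1 higher (-0.41), and 3 of 10 platelet genes were lower and 0 higher (-0.38), where 13.4% of all genes were lower. Emcn, an endothelial surface protein, was at 5.56 TPM in KO ectoderm against 0.75 in WT ectoderm, and Cdh5, the cadherin of endothelium, at 6.16 TPM in KO ectoderm against 1.02 in WT ectoderm. The summed TPM of the endothelial list was 2.65 times as high in KO ectoderm as in WT ectoderm, and that of the mesenchyme list 2.66 times. The summed TPM of the 9 red cell genes was 1.05 times as high. In ectoderm platelet genes were higher in KO in 2 of 5 cases and macrophage genes in 4 of 10, with medians of 0.36 and 0.32. Ppbp, 1 of the 2 platelet genes, was likewise below 1 TPM in WT ectoderm. The part of these other cells in the values of the red cell genes was not tested.

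**Figure D5:**
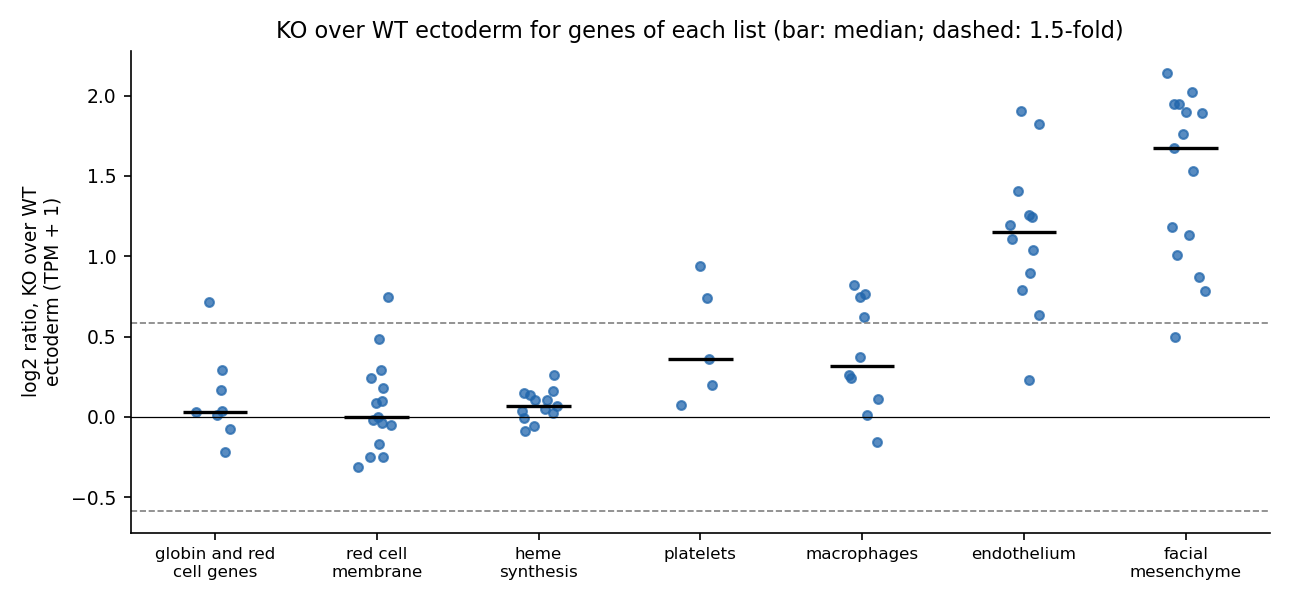
Log2 ratio of KO over WT ectoderm (TPM + 1) for genes of 7 lists; points are genes whose mean reached 1 TPM, bars medians and dashed lines 1.5-fold. The medians are 0.03 for globin and red cell genes, 0.00 for red cell membrane and 0.07 for heme synthesis, against 1.15 for endothelium and 1.68 for facial mesenchyme.

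Some other genes of the red cell pathway had a layer difference like that of the members. Of 77 such genes besides the members, 68 were measured in both layer comparisons, and 21 of these were at least 2-fold higher in mesenchyme in both genotypes. Among the 21, the anion exchanger of the red cell membrane Slc4a1 was at 21.4 TPM in KO mesenchyme, 36.5 in WT mesenchyme, 6.92 in KO ectoderm and 7.91 in WT ectoderm. The carbonic anhydrase Car2 was at 40.7 TPM in KO mesenchyme, 37.2 in WT mesenchyme, 10.6 in KO ectoderm and 8.64 in WT ectoderm. The erythroid nuclear protein Hemgn was also among the 21. The 2-fold mark was passed upward by 6.88% of all genes between KO layers and 12.1% between WT layers.

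Transcription factors of the red cell lineage were mostly at low TPM or shared with other cells. Klf1, Tal1, Nfe2 and Gfi1b, which act in red cell and megakaryocyte precursors, were below 8 TPM in every group. Ldb1, a cofactor used by many tissues, was at 201 TPM in KO mesenchyme, 285 in WT mesenchyme, 316 in KO ectoderm and 296 in WT ectoderm. Of the 13 factors, Gata1 included, 0 were higher and 1 was at least 1.5-fold lower in KO mesenchyme, no more than the 13.4% of all genes, and 0 of the 8 measured in ectoderm passed in either direction. The lower factor was Zfpm1, a partner of Gata1, at 4.47 TPM in KO mesenchyme against 10 in WT mesenchyme.

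Heme synthesis genes as a list differed less between the layers than the globins did. The list, Alas2 included, had a median mesenchyme over ectoderm ratio of 0.951 in KO and 1.37 in WT. Alas1, the housekeeping counterpart of Alas2, was at 35.8 TPM in KO mesenchyme, 54.7 in WT mesenchyme, 37.7 in KO ectoderm and 35.0 in WT ectoderm. Alad, the next enzyme of the pathway, was at 30.1 TPM in KO mesenchyme against 56.9 in WT mesenchyme. These were the 2 of 13 list members that were at least 1.5-fold lower in KO mesenchyme, a share close to the 13.4% of all genes, and none passed in ectoderm.

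Of the measured iron genes 0 of 9 passed 1.5-fold between genotypes in either layer. Tfrc, the transferrin receptor, was at 40.9 TPM in KO mesenchyme, 28.5 in WT mesenchyme, 55.6 in KO ectoderm and 65.8 in WT ectoderm. Of 19 red cell membrane genes 6 were lower in KO mesenchyme, among them Slc4a1, the blood group protease Kel (16.0 TPM in KO against 29.8 in WT) and the skeleton adaptor Ank1 (8.19 TPM in KO against 14.0 in WT). With the GC trend subtracted, the log2 ratios were -0.32 for Slc4a1, -0.62 for Kel and -0.21 for Ank1, so only Kel of these stayed past 1.5-fold. In ectoderm 1 of 15 was higher in KO, where 4.93% of all genes were higher. This was Gypc, a glycophorin, at 6.75 TPM in KO ectoderm against 3.63 in WT ectoderm. Its WT mesenchyme over ectoderm ratio was 10.3, against a median of 4.29 for the members. Of the red cell enzyme and maturation genes 1 of 15, Ube2o, was lower in KO mesenchyme, at 22.3 TPM in KO against 38.1 in WT, and 0 of 14 passed in ectoderm. In all, 11 of 70 of these pathway genes besides the members were lower in KO mesenchyme and 0 higher, where 13.4% of all genes were lower, and with the GC trend subtracted 1 of 70 was lower.

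Among other globins, the pseudogene Hbb-bh0, which lies between Hbb-y and Hbb-bh1, was at 116 TPM in KO mesenchyme, 91.4 in WT mesenchyme, 25.5 in KO ectoderm and 25.0 in WT ectoderm. Its annotated transcript is 129 bases long, so few reads give a high TPM, and it may share reads with its neighbours. Hbq1b, the theta globin, was at 5.10 TPM in KO mesenchyme, 5.74 in WT mesenchyme, 1.51 in KO ectoderm and 1.06 in WT ectoderm. Cygb, a globin of connective tissue cells, was at 2.98 TPM in KO mesenchyme, 5.02 in WT mesenchyme, 1.29 in KO ectoderm and 0.52 in WT ectoderm. Hbb-bh2 and Hbq1a were below 1 TPM in all groups.

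Markers of the organs that make red cells were at or near 0. Alb and Afp, made by fetal liver and yolk sac endoderm, did not exceed 0.24 and 0.03 TPM. Of 10 genes of that list, 2 reached a mean of 1 TPM in mesenchyme, led by Trf (transferrin) at 8.69 TPM in KO mesenchyme and 12.1 in WT mesenchyme. Granulocyte and mast cell genes included S100a8, a calcium-binding protein of neutrophils, at 9.64 TPM in KO mesenchyme, 11.3 in WT mesenchyme, 2.78 in KO ectoderm and 2.44 in WT ectoderm. That list had 1 of 6 measured genes lower in KO mesenchyme, where 13.4% of all genes were lower, 0 higher there and 0 of 4 past 1.5-fold in ectoderm.

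Genes with the most similar pattern were ranked by the Euclidean distance between log2(TPM + 1) values centred on their mean over the 4 groups, among 9782 genes with at least 5 TPM in every group. Nearest to the summed beta-type globins, after the 4 beta-type genes themselves were left out, were Hbb-bh0 (distance 0.17), Rai14 (0.17), Car2 (0.18), Foxp2 (0.19) and Hba-a1 (0.20). Tagln3, Alas2, Mme, Hba-a2 and Angptl4 completed the 10. Nearest to Alas2 were Hbb-bt (0.09), Hba-a2 (0.12), Hba-x (0.20), Hbb-y (0.20) and Rai14 (0.23), followed by Car2, Ube2l6, Hba-a1, Angptl4 and Hbb-bs. Of the 10 nearest to Alas2, 6 were globins of the member list. Hbb-bh1 ranked 193 by this distance (0.82). With 4 values per gene this likeness is a description only.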

How the data were processed

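RNA of 16 libraries was measured. The authors deposited TPM as a single column for each of the 4 groups. Per the submitters' processing notes, the tools were STAR (2.5.2a) and kallisto (0.43.0), with build mm10. Their roles, the annotation and the way libraries were combined: not given in the sources used here. A planned limma fit needs library values and was not run, so no p-value or error is given. Of several rows with one symbol, that with the largest total was used. Log2 ratios used TPM + 1. A gene was counted where the mean of the groups compared was at least 1 TPM (all 4 groups for differences between layer effects). It was called past 1.5-fold (2-fold for differences between layer effects). The call step was tested on simulated data with set folds, which checks the code and says nothing about error in the deposited values. GENCODE M21 held 99.0% of the symbols; a lowess trend (fraction 0.3) on GC content of the longest transcript was an alternative, beside other pseudocounts, filters and scalings. Named by rule were all members, up to 4 genes of each list with the highest mean, list genes past 1.5-fold between genotypes with at least 5 TPM, and the 10 nearest patterns. Other genes were named after their values were seen. Members and lists were chosen with earlier results of these data known. Python 3.11.15, pandas 2.3.3 and statsmodels 0.14.6 were used.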

Additional observations from a re-analysis of the deposited data

How the results depend on the processing

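No library values were available, so leaving out replicates was not run. No paired analysis was possible because the columns carry no replicate numbers. Hbb-bh1 had KO over WT log2 ratios between 0.58 and 0.82 in mesenchyme and between 0.65 and 0.71 in ectoderm over 11 settings. The filter, fold and summing settings cannot move this ratio, so its range comes from the pseudocount, rescaling, quantile and GC settings only. Quantile normalization gave 0 higher and 1 lower member in mesenchyme (Hbb-bh1 at 0.58, Hba-a2 at -0.59). A 2-fold call gave 0 higher members in mesenchyme and 0 in ectoderm. The layer counts of 9 of 9 held under every setting that kept the 9 genes, except at 2-fold between KO layers, where Gata1 (0.84) was not counted. Of the other red cell genes, a pseudocount of 0.1 gave 18 lower in KO mesenchyme and 4 higher in KO ectoderm, against 11 and 1. Subtracting the GC trend gave 1 higher and 1 lower in KO mesenchyme. Quantile normalization gave 2 higher and 3 lower there and 0 higher in KO ectoderm. The median log2 ratio of all genes between KO and WT mesenchyme was -0.12, and 0.04 after the GC trend was subtracted. Shares and ratios of globins stayed within 1.5-fold under the alternatives tried, but the KO over WT ratio of alpha-type per beta-type RNA in mesenchyme, 0.812, turned to 1.03 with the GC trend subtracted. That alternative for ratios, and summing the near-identical copies, were chosen after seeing the data. The summing left 1 higher member in each layer. The settings are compared with no replicate spread, since 1 value per group gives none.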
